A study of Homo sapiens with 8 samples.

Results

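The genes described here encode the proteins of the cytosolic ribosome. They were chosen by symbol, as RPL or RPS followed by a number with an optional A, L, AL or X, together with RPLP0, RPLP1, RPLP2 and RPSA, and 82 of the 60651 genes in the RNA-seq table met this rule. Each was joined by its Ensembl identifier to the table of polyadenylation sites (PASs). The cells were HEK293TAPA cells, a HEK293T (human embryonic kidney) line that stably expresses an alternative polyadenylation (APA) reporter. All of them received dPguCas13b, a catalytically dead Cas13b that a guide directs to RNA without cutting it. They received either gUSE, a gRNA against the upstream element of the PAS inserted in the reporter, or gNT, a non-targeting gRNA, and were collected 48 h after transfection. For each gRNA there were 2 libraries of 3′ end mRNA sequencing (QuantSeq REV, whose reads begin at the poly(A) junction) and 2 libraries of RNA-seq, 8 in all. The labels do not say that the libraries came from separate cultures, so p-values measure the spread between these libraries, which may be technical.

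Ribosomal proteins assemble with ribosomal RNA into the small subunit (RPS proteins), which decodes mRNA, and the large subunit (RPL proteins), which forms the peptide bond. Their mRNAs are short, abundant and usually begin with a run of pyrimidines, the 5′ terminal oligopyrimidine tract through which mTOR signalling controls their translation. They are also the mRNAs that have been copied back into the genome most often by reverse transcription. These processed pseudogenes lack introns and often keep the poly(A) tail of the mRNA as a stretch of genomic A.

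RNA-seq libraries held 10259757 to 12977693 counts. The part of the 3′ end table analysed covers 20 chromosomes and ends within chromosome 7, and held 1593763 to 2380992 reads per library, of which 1415250 to 2120807 lay at PASs that name 1 gene. Over all genes, libraries of the same gRNA differed from each other by 1.41 to 1.68 times the counting noise (chi-square per degree of freedom), so none was a repeat of another. Over the members alone the values were 3.70 (gNT) and 3.40 (gUSE) in the 3′ end libraries, and 1.74 and 1.60 in RNA-seq. Of 6 markers of HEK293T cells, all were counted in every RNA-seq library, from 33 counts (PAX2, lowest library) to 11492 (IRS4, highest library). Of 7 markers of other tissues, HBB was at 0 in every library, CD3E, KRT5, MYH7 and PTPRC were at 0 in at least 1 library and no higher than 21, ALB reached 16, and COL1A1 reached 120.

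Not every member could be followed in both assays. Of the 82 genes, 63 had PASs that name them alone. Of the others, 12 (RPL7, RPL7A, RPL8, RPL10, RPL12, RPL30, RPL35, RPL36A, RPL39, RPS4X, RPS6 and RPS20) lie on chromosomes beyond the part analysed. RPL17, RPL21, RPL26 and RPS10 had reads only at PASs that also name another gene, and 3, RPL3L and RPL10L among them, had no PAS in the part analysed. In RNA-seq, 80 members passed the filter of 10 counts in at least 2 libraries, all except RPL3L and RPL10L. In the 3′ end counts per gene, all 63 passed it.

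At the annotated transcription start most of these genes carry the pyrimidine run for which they are known. Among the 65 members with an entry in the RefSeq promoter set (GRCh38.p14), 48 (73.8%) had at least 7 C or T in a row around the start, counted from 5 bases before it and beginning at most 5 bases after it, on the transcribed strand, against 10.0% of all 27305 promoters and 6 of 70 genes for mitochondrial ribosomal proteins. The median run was 10 bases in members and 3 in all promoters. The windows below hold the 10 bases before the start and the 14 from it, with the counted run in capitals; they are shown because the first 5 come from genes at both ends of the comparison between assays described further on, and RPL27 had the smallest p between the gRNAs in RNA-seq.
RPL37A (chr2:216498834-216498857, plus strand): gcgtcTCTTCCTTTCTgggctcgg
RPS21 (chr20:62387093-62387116, plus strand): ctagctgCTTCCTTTCTCTCTCgc
RPL13A (chr19:49487598-49487621, plus strand): aaaccTCCTCCTTTTCCaagcggc
RPS18 (chr6:33272065-33272088, plus strand): cacttccgCTCTCTCTTCCacagg
RPS29 (chr14:49598697-49598720, minus strand): agcgcgcagCTggcagcggtggtt
RPL27 (chr17:42998409-42998432, plus strand): gtgaaaggTTagcggaagtgtcct
The first 4 carry counted runs of 11, 15, 12 and 11 bases at the RefSeq start, and in RPL37A and RPL13A the pyrimidines also extend further upstream, whereas RPS29 and RPL27 show 2 there. The runs were found in genes with very many and with very few 3′ end reads alike.

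Cytosolic ribosomal protein genes took about 5% of the RNA-seq counts and a larger share of the 3′ end reads, and the gNT and gUSE libraries overlapped in both shares. In RNA-seq they held 5.32% and 5.31% of all counts under gNT and 5.30% and 5.32% under gUSE, so that the values of the groups overlapped. The mean difference (gUSE minus gNT) was -0.00205 percentage points (exact permutation test, two-sided, p = 1, n = 2 per group). Without mitochondrially encoded genes in the total the groups did not overlap, at 5.80% and 5.78% under gNT against 5.76% and 5.75% under gUSE, a difference of -0.0322 (exact permutation test, p = 0.33, n = 2 per group). In the 3′ end libraries, the PASs of the 63 members held 10.3% of the reads under gNT in both libraries, and 10.3% and 10.4% under gUSE. The difference was 0.0449 percentage points (exact permutation test, two-sided, p = 1, n = 2 per group). A comparison of 2 libraries against 2 cannot give a p below 0.33.

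Over the 15613 genes listed in both tables, the members held 10.4% ± 0.0618 of the 3′ end reads and 5.41% ± 0.0210 of the RNA-seq counts (SD, n = 4 libraries each). The difference of 4.98 percentage points separated every 3′ end library from every RNA-seq library (exact permutation test, two-sided, p = 0.0286, n = 4 per assay), which is the smallest p this design allows. With the reads of pseudogenes added it was 9.94 percentage points (15.4% against 5.49%), and without the leading member of each assay 4.08. A 3′ end library counts 1 read per mRNA end whereas RNA-seq counts fragments along the transcript, so short mRNAs weigh more in the former, and this part of the difference was not tested. The assays were also prepared and counted separately, so assay and library preparation cannot be told apart.

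Within RNA-seq the leading member was RPS2, a small subunit protein near the mRNA entry site, with 53950 and 56293 counts under gNT and 51813 and 45380 under gUSE. Scaled to library size these were 4391 CPM on average, where CPM is a gene's count scaled to a common library total. Per kilobase of annotated exon, the levels were highest for RPS2 (1839 CPM per kb), RPS6 (848), RPL8 (753) and RPS4X (639). RPS6 is the S6 kinase substrate of the small subunit, and RPS4X is the X-linked copy of the protein S4. The order depended on the length used: per kilobase of the canonical transcript RPS2 (4646) and RPS6 (1669) stayed among the first 5, beside RPL26 (1704), RPL27 (1653) and RPL12 (1546). Annotated exon lengths of several members include long transcripts whose share was not measured, so these levels are uncertain. The members' CPM varied little between libraries, with a median SD over the 4 RNA-seq libraries of 0.0260 on the log2 scale for 80 members and of 0.0763 over the 4 3′ end libraries for the 60 members with at least 10 reads in each.

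Several members are paralogues of another, and the second copy was the lower one in RNA-seq. RPL3L, a muscle form of RPL3, had 0, 2, 4 and 0 counts, and RPL10L, a testis form of RPL10, had 1, 0, 0 and 0. RPL39L had 65 and 50 counts under gNT and 56 and 31 under gUSE. Per kilobase of exon its level was 4.10 CPM against 233 for RPL39. RPS27L, a p53-inducible form of RPS27, reached 4.82 CPM per kb against 254 for RPS27, and RPL22L1, which lies outside the symbol rule, reached 10.3 against 75.2 for RPL22. RPL36A and RPL36AL lay close on this scale, at 113 and 104, but apart per kilobase of canonical transcript, at 589 and 104. In the 3′ end reads the order of a pair could turn: RPS27L had 190 and 129 reads under gNT and 162 and 132 under gUSE, all above RPS27 with 78, 48, 62 and 39.

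That last pair is one case of a wider pattern, in which the level of a ribosomal protein gene in RNA-seq said little about its number of 3′ end reads. Across the 63 members the Spearman correlation of the mean level in the 2 assays was -0.0235 (both in CPM; Pearson's r of the log2 levels 0.0981). For members with at least 1000 RNA-seq counts on average (n = 59) it was -0.0688, against 0.438 for the other 2145 genes with as many. These are correlations across genes, which are not independent replicates, and the members share libraries and depth. RPL37A, a zinc-binding large subunit protein, had the most 3′ end reads. It had 33153 and 22476 3′ end reads under gNT and 30181 and 24035 under gUSE, and between 3953 and 4873 RNA-seq counts. RPL13A, a large subunit protein known for a role in translational silencing after interferon, had the lowest assay difference. It had 18690 and 19422 RNA-seq counts under gNT and 17516 and 15540 under gUSE, and 26, 11, 11 and 18 3′ end reads at PASs of its own. A PAS that names both RPL13A and its pseudogene RPL13AP5 held 2134, 1361, 2064 and 1610 reads in the same libraries. These are not counted in the difference.

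**Figure D1:**
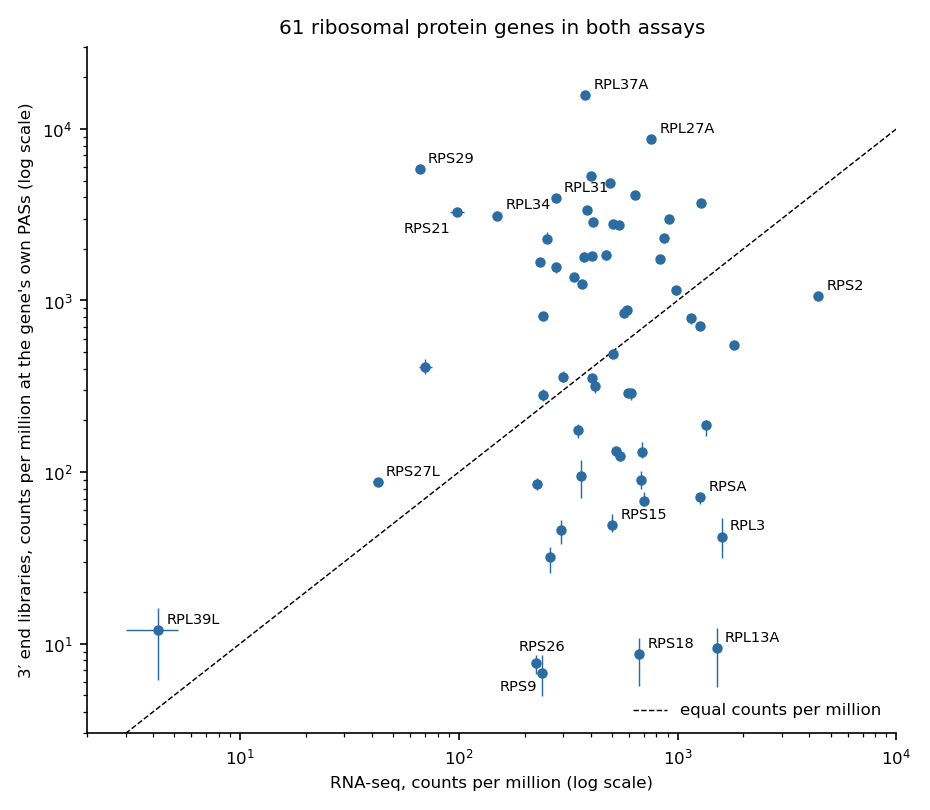
Mean level of 61 ribosomal protein genes in RNA-seq (x axis) and at their own PASs in the 3′ end libraries (y axis), both in CPM on log scales, with bars from the lowest to the highest of the 4 libraries and a dashed line at equal values. RPS29, RPL37A and RPS21 lie far above the line and RPL13A and RPS18 far below it, while the bars are longest for genes with few reads, such as RPL39L.

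The difference between assays was tested for each gene with edgeR's quasi-likelihood test over all 8 libraries, with the gRNA as a covariate. Of the 63 members, 62 passed an adjusted p of 0.05 and RPL9 alone did not, beside 79.6% of all 10691 genes tested. With the further threshold of 1 on the log2 scale, 30 members were higher in the 3′ end libraries and 20 were lower, beside 20.6% and 25.9% of all genes. The members therefore lay above the background share on the higher side and somewhat above it on the lower side. Their median log2 difference was 0.75, beside -0.13 over all genes. Scaling by library totals in place of TMM factors moved the median of all genes to -0.75. It gave 26 higher and 25 lower members. The shares of all genes are not given for this scaling, so these counts cannot be set against a background. Setting RNA-seq counts per exon length gave 20 higher and 27 lower, beside 13.2% and 35.8% of all genes, and the median was then -0.61 for members and -0.51 over all genes.

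Members of both subunits stood at the high end. RPS29, which carries a zinc finger in the head of the small subunit, had 12137 and 8304 3′ end reads under gNT and 11479 and 8991 under gUSE. Its RNA-seq counts were 849, 862, 728 and 690, so that every 3′ end library held more reads of it than any of the far deeper RNA-seq libraries. The log2 difference was 6.63 ± 0.04 (SE, adjusted p = 5.25e-84). It was followed by RPL37A (5.54 ± 0.03), RPS21 (5.23 ± 0.04), RPL34 (4.56 ± 0.04) and RPL31 (4.01 ± 0.03). RPS21 is a small subunit protein, and RPL34 and RPL31 belong to the large subunit. Per exon length these differences were 7.04, 5.28, 2.39, 3.47 and 3.51, so each remained positive.

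At the low end RPL13A stood at -7.15 ± 0.08 (SE, adjusted p = 8.10e-67). The far more numerous reads at the PAS that also names RPL13AP5 are not counted in this value. RPS18, in the head of the small subunit, had 23, 8, 20 and 12 reads and a difference of -6.04 ± 0.09. An unnamed PAS 443 nt beyond its listed end held 672, 458, 608 and 476 reads in the same libraries, which this difference does not count. RPL3, near the peptidyl transferase centre, stood at -5.07 ± 0.06 and RPS9, which supports decoding accuracy, at -4.95 ± 0.12. The counts of these genes in the 3′ end libraries were so low that counting error alone is large. The SEs given for these 4 genes are smaller than that counting error, so they understate the uncertainty. In all, 16 of the 63 members had under 100 3′ end CPM, while in RNA-seq 7 of 82 did.

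Other well-expressed genes were less spread. Among genes with at least 1000 RNA-seq counts, the log2 difference had an SD of 3.04 over 59 members and 2.08 over 2145 other genes. Differences above 3 were found in 10 members (16.9%) and 24 other genes (1.12%), and differences below -3 in 9 members (15.3%) and 119 other genes (5.55%). For comparison, the 68 mitochondrial ribosomal protein genes tested, which make the separate ribosome of that organelle, had a median of 1.27, with 40 higher and 2 lower by the same thresholds. The members' difference was not ordered by the length of the canonical transcript (Spearman's rho -0.0345, n = 63 genes) and weakly by the number of annotated pseudogenes (-0.256). The canonical transcript is long for some members, such as RPL37 (7573 nt) and RPL27A (4535 nt), and need not be the expressed form. RPL27A, for one, had 98.6% of its reads on its most proximal expressed PAS. The leading PAS was listed at a single position for 15 members and over a range of up to 190 nt for 48, and rho of this width with the difference was 0.284.

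Many 3′ end reads lay at PASs of the members' pseudogenes. PASs that name a pseudogene of a member, and no other gene, held 70582 to 105122 reads per 3′ end library, or between 4.96% and 5.08% of the reads at PASs that name 1 gene. In RNA-seq, by contrast, the 1284 pseudogenes of members (1283 symbols) together held between 0.0797% and 0.0829% of the counts. Of the 63 members, 40 had some reads at pseudogenes, 19 had at least 1000 over the 4 libraries, and 18 had more reads at pseudogenes than at their own PASs. In RNA-seq no member had more counts at its pseudogenes, and the highest share was 9.95% (RPL41).

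Some families with many pseudogene reads had few at the member itself. RPS15, in the head of the small subunit, had 95 and 71 reads of its own under gNT and 112 and 68 under gUSE, while the pseudogene RPS15P4 had 9906, 6796, 8879 and 7265. RPL3 had 67 and 48 reads under gNT and 106 and 74 under gUSE, and RPL3P4 had 5353, 3636, 4893 and 3753. RPL10A, the protein of the L1 stalk, had 195 to 270 reads per library and RPL10AP6 had 5989 to 9001. RPS28P7 led all pseudogenes with 10077 to 16052 reads per library, against 119 to 179 at RPS28. In all of these families the pseudogene was above the member in every library, with no overlap. Other members had many reads of their own: RPS27A had 12884 over the 4 libraries beside 37875 at its pseudogenes, and RPL13 had 8047 beside 13906. The RNA-seq libraries held 228 counts over all pseudogenes of RPS28 and 10728 of RPS28 itself, summed over 4 libraries, and 85 against 23821 for RPS15.

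When each member was summed with its pseudogenes in both assays, an alternative chosen after seeing the data, the spread of the log2 difference over the 63 members fell from an SD of 3.07 to 2.68. The difference of RPL3 went from -5.07 to 0.86, that of RPL10A from -1.82 to 3.23, that of RPS15 from -3.18 to 3.40 and that of RPS28 from -1.24 to 5.24. RPL13A went from -7.15 to -1.09. RPS9, which had no 3′ end read at a pseudogene, stood at -4.95 in both. After the summing, 41 members were higher and 13 lower by the thresholds above, beside 20.4% and 25.9% of all genes. Spearman's rho of the counts in the 2 assays over the 63 families was 0.108.

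The genomic bases after the end of each member and of its leading pseudogene were read from GRCh38. There were 24 members whose leading pseudogene had at least 1000 reads, including members without PASs of their own in the part analysed. For 21 of them the last 50 bases of an annotated transcript were found in or near the pseudogene with at most 5 edits. The matched position was taken as the end of the pseudogene. Among the 20 bases that follow, the members had a median of 3 A (1 to 12) and the pseudogenes a median of 17 (4 to 20). The pseudogene had more A in 20 of the 21 pairs, and 19 pseudogenes but no member had at least 14. The exception was RPL7P9, with 4 A against 8 after RPL7, and RPS27AP16 differed little from RPS27A (13 against 12). The ends used were annotated transcript ends and need not be those at which reads were counted. In the RPS27A pair the bases AATAAA, the canonical poly(A) signal, directly follow the end used, so this end lies upstream of the signal. For RPS28P7, RPL13P12 and RPL37P2 no match with at most 5 edits was found (21, 13 and 18 edits). All of the pseudogenes were picked for their reads, so the count describes them and is not a test. The windows below show 5 pairs with many pseudogene reads, each with the 15 bases up to the end in lower case and the 15 genomic bases after it in capitals, on the strand of the gene in GRCh38.
RPL3 (chr22:39312867-39312896, minus strand): tattttccactgacaTCTTGCCTCTTTCTT
RPL3P4 (chr14:98972807-98972836, minus strand): ttattttccactgaaAAAAAAAAAAAAAAA
RPL10A (chr6:35470766-35470795, plus strand): attctattaccagttCCCTCTGTCTGCCTG
RPL10AP6 (chr3:61742410-61742439, minus strand): attctattaccagttCAAAAAAAAAAAAAA
RPL6 (chr12:112405174-112405203, minus strand): aatagctgactacatTTTGTGTCTCTTTTT
RPL6P27 (chr18:6462095-6462124, minus strand): aaatagctgactacaAAAAAAAAAAAAAAA
RPL15 (chr3:23919538-23919567, plus strand): aatttaggacagtcaTGTCTGCTTACAGGT
RPL15P3 (chr6:12514761-12514790, plus strand): aatttaggacagtcaAAAAAAAAAAAAAAA
RPS15 (chr19:1440481-1440510, plus strand): cgcacatgactccagTCCTTTGCGCAGCTT
RPS15P4 (chr2:171517223-171517252, minus strand): gcgcacatgactccaAAAAAAAAAAAAAAA
In each pair the bases up to the end are nearly the same, while those after it are mixed for the member and almost all A for the pseudogene. The authors counted uniquely mapped reads within 24 nt of a listed PAS, after removing T from the start of the read, and the deposited counts do not show from which locus a read was transcribed. How the alignment treated reads with such near-identical ends was not tested.

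**Figure D2:**
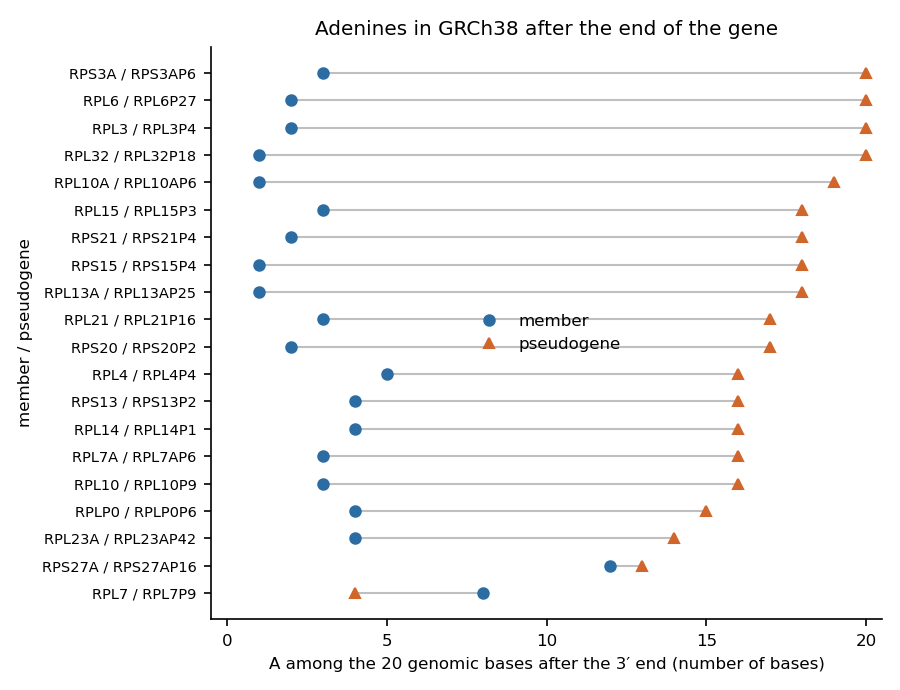
Number of A among the 20 genomic bases after the 3′ end (x axis) for 20 members (circles) and their leading pseudogenes (triangles). For a pseudogene the end is the position matched to the member's annotated end. The pseudogene lies to the right of the member in 19 pairs, and RPL7 with RPL7P9 is the exception.

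Other reads of these genes lay at PASs that also name another gene. The largest such PAS named RPL13A with the pseudogene RPL13AP5 and had 2134 and 1361 reads under gNT and 2064 and 1610 under gUSE, far above the 26, 11, 11 and 18 at the PASs of RPL13A alone. A PAS that names RPL26, which has no PAS of its own here, with another gene had 1572, 1064, 1454 and 1135 reads. A PAS that names RPS10 and the readthrough gene RPS10-NUDT3 had 519, 307, 445 and 317. For RPSA, the laminin receptor protein of the small subunit, PASs that name one of its pseudogenes with another gene held 7908, 5360, 7617 and 6047 reads against 158, 101, 144 and 99 at RPSA.

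The reads of most ribosomal protein genes were concentrated on a leading site, though most had several. The 63 members had 703 listed PASs, and 180 of these were expressed, meaning that more than 1 library held at least 5 reads. The median was 9 listed and 2 expressed PASs per member, beside 10 and 2 in 9049 other genes with an expressed PAS. The leading PAS held a median of 99.0% of a member's reads (lower quartile 86.7%), beside 96.8% in the other genes. Since members have more reads, the genes with at least 1000 reads were also compared: there the median was 99.1% in 44 members and 93.1% in 1291 other genes, and the leading PAS held over 90% in 35 members (79.5%) and in 54.8% of the others. For 32 mitochondrial ribosomal protein genes with as many reads the median was 95.3%. These are descriptions over genes with no test.

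A single site could carry the bulk of the reads even where many were listed. RPL37A had 8 expressed PASs, of which RPL37A:PAS2 (chromosome 2, listed at 217366157 to 217366275) held 32938 and 22323 reads under gNT and 29986 and 23848 under gUSE, or 99.3% of the gene on average, with 99.3% to 99.4% in each library. PASs are numbered within a gene by increasing position, and positions are those of the PAS table, which are not on GRCh38. RPL31 had the most expressed PASs, 10, and RPL31:PAS3 held 98.7% of its reads. RPL14, with 7, was next to RPL37A but less concentrated, at 67.5%. RPL27A, with 6, had 98.6% on RPL27A:PAS1. For 18 members (28.6%) only 1 PAS was expressed, RPS21 and RPS18 among them, against 47.9% of other genes. Among genes with at least 1000 reads these shares were 22.7% and 29.9%.

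**Figure D3:**
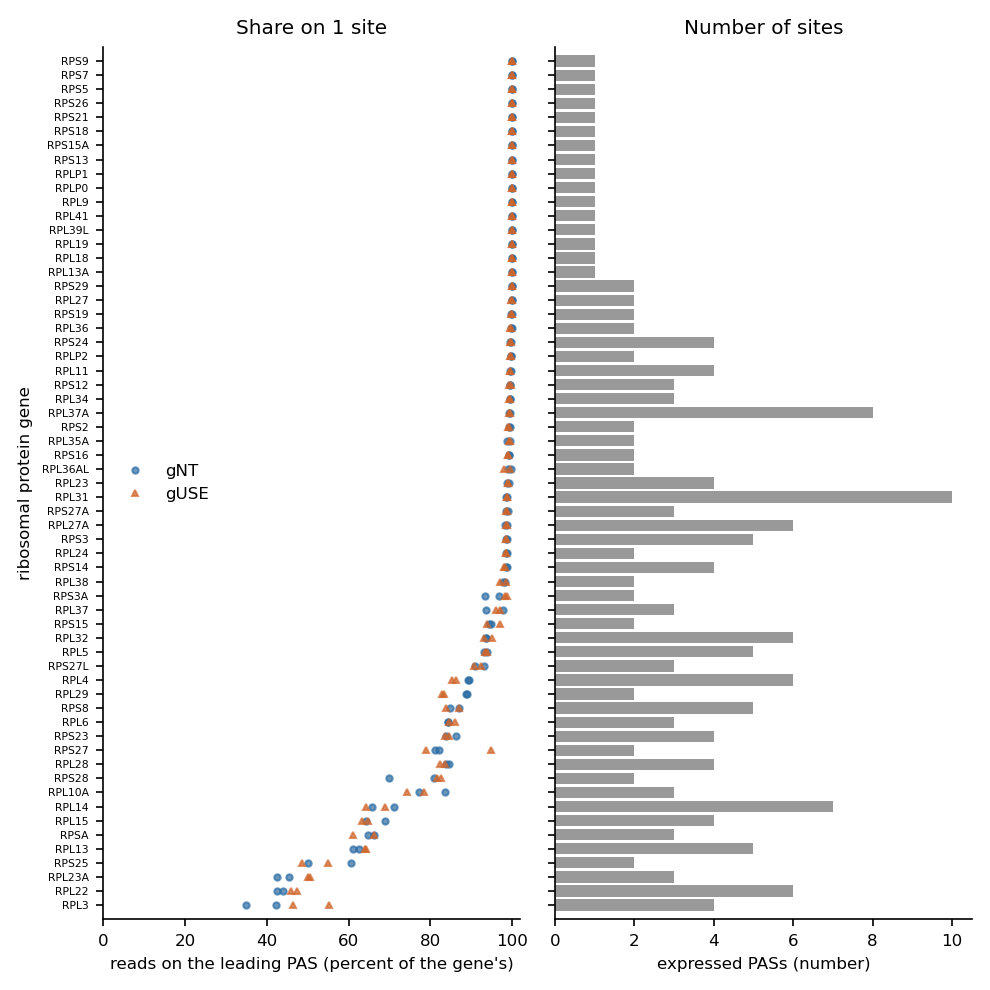
Share of a member's reads on its leading PAS in each 3′ end library (left, percent, circles gNT and triangles gUSE) and its number of expressed PASs (right, bars) for 61 members, ordered by the mean share. The mean share is above 90% in 44 of them and falls below 60% in RPL3, RPL22, RPL23A and RPS25.

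The most divided members were RPL3, RPL22, RPL23A, RPS25 and RPL13. RPL3 had 42.4%, 34.9%, 46.5% and 55.2% of its reads on RPL3:PAS1, but these rest on 15 to 46 reads per library, and most reads of the family lay at RPL3P4. RPL22, a large subunit protein, had 43.9%, 42.6%, 45.9% and 47.4% on RPL22:PAS1 (chromosome 1, listed at 6245091), its most distal site, and a mean of 34.6% on RPL22:PAS4, 1187 nt upstream. RPL23A divided its reads between RPL23A:PAS3 (47.2%) and RPL23A:PAS2 (46.1%). RPS25 had 53.6% on RPS25:PAS1. RPL13, with far more reads, had 61.1%, 62.5%, 64.4% and 63.9% on RPL13:PAS1 and a mean of 35.6% on RPL13:PAS2. Of the 45 members with several expressed PASs, the leading one was the most distal in 16 and the most proximal in 18, and the median distance from the leading to the next most used PAS was 1259 nt.

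The comparison of gUSE with gNT asks whether a gRNA against the reporter altered the expression or the PAS choice of endogenous genes. In bulk libraries, fewer cells and less RNA per cell cannot be told apart. In the main fits, which have no replicate block, no ribosomal protein gene passed an adjusted p of 0.05 in either assay. With a block, 7 of 63 passed in the 3′ end libraries, RPL34 (5.76e-06) and RPL3 (0.0402) among them, by edgeR. Of all 8559 genes, 178 passed with it. Without a block but also without the filter on low counts, RPL27 passed in RNA-seq and RPL34 in the 3′ end libraries. Of all genes, 58 of 32972 and 66 of 12544 passed there. In RNA-seq edgeR's quasi-likelihood test called 0 of 80 members, beside 0.0783% of all 16594 genes, and DESeq2 called 0. At an unadjusted p under 0.05 there were 9 members, beside 7.97% of all genes. Of these, 8 were lower under gUSE, beside 4.02% of all genes, and 1 was higher, beside 3.95%. The median log2 fold change was -0.02 for members and 0.00082 for all genes. Of the members, 55 of 80 (68.75%) were below 0, beside 49.7% of all genes. Among 3′ end counts per gene edgeR called 0 of 63 members, beside 0.479% of 8559 genes, and DESeq2 called 0. At an unadjusted p under 0.05 there were 12, beside 10.5% of all genes. Of these, 7 were higher, beside 5.09% of all genes, and 5 were lower, beside 5.44%.

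Apart from RPL3, described further on, the members nearest to a call had small fold changes. RPL27, a large subunit protein, had 10811 and 11120 RNA-seq counts under gNT and 9472 and 8170 under gUSE. Scaled to library size these were 867, 857, 818 and 796 CPM, so both gUSE libraries lay below both gNT libraries. The log2 fold change was -0.10 ± 0.02 (SE, adjusted p = 0.160). Without the filter on low counts, over 32972 genes, it was -0.11 with an edgeR adjusted p of 0.00856. DESeq2 gave -0.10 and did not call it. With 1 library left out the log2 fold change ran from -0.13 to -0.08. RPL23 (-0.07 ± 0.02, adjusted p = 0.477) and RPL37 (-0.07 ± 0.02, 0.477) followed. In the 3′ end libraries RPL34 had 6940 and 4708 reads under gNT and 5837 and 4456 under gUSE, a log2 fold change of -0.16 ± 0.04 (adjusted p = 0.0770, and 0.0219 without the filter on low counts). RPLP1, a stalk protein that recruits elongation factors, stood at 0.15 ± 0.05 (0.172). The direction of RPL27 was the same in the 3′ end libraries, at -0.13 ± 0.05 (0.279).

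**Figure D4:**
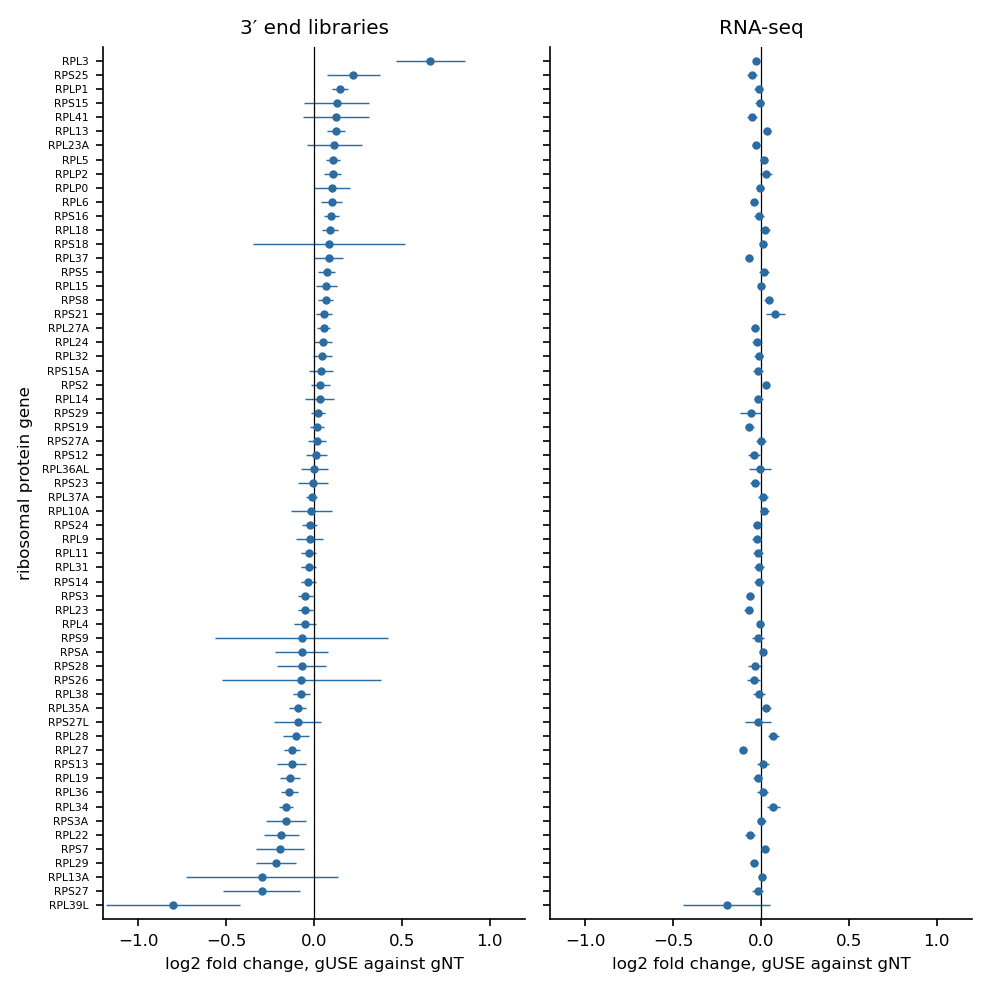
Log2 fold change of gUSE against gNT with its standard error for 61 members in the 3′ end libraries (left) and in RNA-seq (right), from edgeR, ordered by the 3′ end value. Nearly all points lie close to 0, the errors are wider in the 3′ end libraries, and RPL3 and RPL39L lie farthest out on the left panel.

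RPL3 had the highest log2 fold change of a member in the 3′ end reads and the only call in the test of the difference between assays. Its reads were 67 and 48 under gNT and 106 and 74 under gUSE, and when scaled to library size both gUSE libraries lay above both gNT libraries. The log2 fold change was 0.66 ± 0.19 (SE, adjusted p = 0.149). Its RNA-seq counts were 19945 and 20702 under gNT and 18243 and 16207 under gUSE (log2 fold change -0.03 ± 0.02, adjusted p = 0.785). The effect in the 3′ end libraries minus that in RNA-seq was 0.71 ± 0.18 on the log2 scale (interaction term in edgeR, adjusted p = 0.0387), 1 member of 63 beside 0.533% of 10691 genes. At an unadjusted p under 0.05 there were 10 members, beside 10.1% of all genes, 7 of them with a positive difference (5.03% of all genes) and 3 with a negative one (5.05%). With the reads of its pseudogenes added, nearly all of them at RPL3P4, this difference was 0.02 (adjusted p = 0.965), and it lost the call when any of the 8 libraries was left out (adjusted p 0.0542 to 0.350), although the difference stayed between 0.61 and 0.78.

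PAS usage, the share of a PAS among the reads of its gene, was tested for 162 PASs in 45 members with edgeR's diffSpliceDGE. None passed the thresholds of an adjusted p of 0.05 and a usage change of 0.1, beside 0% of all 14965 PASs tested, and none passed the adjusted p alone; 7 had an unadjusted p under 0.05, beside 4.4% of all. The lowest adjusted p was that of RPS14:PAS3, used at 1.34% ± 0.06 under gNT and 1.81% ± 0.17 under gUSE (SD, n = 2, edgeR adjusted p = 0.779). RPS14 is a small subunit protein. The next were RPS3:PAS3 (0.841), with 11 reads in all, and RPS3A:PAS2 (0.866). The median size of the usage change was 0.00198 over member PASs and 0.0261 over all. Members had a median of 5529 3′ end reads, beside 214 in other genes with an expressed PAS. Neither this comparison nor the next was made at equal depth. Changes above 0.1 in size were seen at 1.23% of member PASs, beside 11.8% of all tested, namely at RPL3:PAS1 (0.122) and RPL23A:PAS2 (-0.102), both at sites with under 80 reads per library.

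Genes that work with the ribosomal proteins were given by list. None of 6 ribosomal proteins outside the symbol rule (such as FAU and RACK1), 39 ribosome assembly factors, 13 chaperones and importins of ribosomal proteins, 79 mitochondrial ribosomal proteins and 16 translation factors with mRNAs of the same type passed an adjusted p of 0.05 in RNA-seq, where all were tested. Of these lists 6, 31, 12, 67 and 11 genes, in the same order, were tested in the 3′ end libraries and none passed. Their median log2 fold changes in RNA-seq ran from -0.02 to 0.01, beside 0.00082 over all genes. Of the 1283 pseudogene symbols of members, 76 were tested in RNA-seq and 54 in the 3′ end libraries, with none passing. Across the lists the smallest p in RNA-seq was that of EIF3E, a subunit of the initiation factor eIF3, at -0.11 ± 0.03 in RNA-seq (adjusted p = 0.160). In the 3′ end libraries PES1, needed for large subunit assembly, stood at -0.48 ± 0.14 (0.157) and EEF1A1, the elongation factor that delivers aminoacyl-tRNA, at -0.31 ± 0.10 (0.168).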

How the data were processed

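Both tables hold raw counts made by the authors before they were deposited. Adaptors were trimmed with cutadapt, leading T was removed from 3′ end reads, and reads were aligned with STAR (2.7.9 per the submitters' processing notes) to hg38. Uniquely mapped reads were counted per gene (GENCODE v37, strand setting not given in the sources used here) or within 24 nt of a PolyA_DB3 PAS. The positions of the PAS table are on a build not given in the sources used here and are printed as listed. PASs after the first part of chromosome 7 were not analysed here.

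Gene symbols of PASs were taken from the RNA-seq table by Ensembl identifier, which renamed 550 genes, 23 of them pseudogenes of members and none a member. Counts per gene were compared with the quasi-likelihood test of edgeR 4.0.16 (R 4.3.3) with TMM factors and Benjamini-Hochberg adjustment over all genes with at least 10 counts in 2 libraries (4 for both assays together). PAS usage was tested with diffSpliceDGE over expressed PASs (5 reads or more, in more than 1 library), in place of the tool the study used. DESeq2 1.42.0 was an alternative. Standard errors of edgeR values were the size of the log2 value divided by the square root of the test's F statistic. Shares were compared with two-sided exact permutation tests (scipy 1.17.1, Python 3.11.15). The fits were tested on simulated data. Transcript lengths came from GENCODE v44. Low counts limit precision, and errors that rest on counting cover counting error only.

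The members and lists were chosen with earlier results of these data known. Named were the 5 highest members per exon length, the paralogue pairs, the members called or else the 3 with the smallest p in each gUSE comparison, the 5 with the highest and the lowest assay difference, the 5 with the lowest leading share, the 3 with the most expressed PASs, and up to 4 genes per list by smallest p. The pseudogene families were named by their reads, after these were seen, as were RPL27A, RPL6 and RPL15. Some of these genes are not reported here by name or drawn in the figures, though all counts include them. Alternatives covered normalization, filters, PASs that name several genes, chromosome 7, leaving out each library and a replicate block.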

Additional observations from a re-analysis of the deposited data

Results flagged for a closer look

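The effect of gUSE on RPL3 differed between the assays by 0.71 on the log2 scale (3′ end minus RNA-seq, edgeR interaction term, adjusted p = 0.0387). It was drawn to attention because the difference itself passed its test. In both gUSE 3′ end libraries RPL3 lay above both gNT libraries after scaling to library size, on 67 and 48 reads under gNT and 106 and 74 under gUSE. The call was lost with any of the 8 libraries left out (adjusted p 0.0542 to 0.350, difference 0.61 to 0.78), and with pseudogene reads added the difference was 0.02 (adjusted p = 0.965).

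A total of 14379 reads over the 4 3′ end libraries lay at PASs that name a member together with another gene, and so entered no comparison of single genes. The PAS of RPL13A and RPL13AP5 held 7169 of these, that of RPL26 held 5225 and that of RPS10 and RPS10-NUDT3 held 1588.

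An unnamed PAS 443 nt beyond the listed end of RPS18 (chromosome 6, listed at 33244288) held 2214 reads, 672 and 458 under gNT and 608 and 476 under gUSE, against 63 at the PAS of RPS18 in all. It names no gene and was used in no comparison.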

How the results depend on the processing

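Recomputed under the alternatives, the main counts and values were classed as the same 61 times, moved 20 times, lost the call 8 times and turned sign 3 times. All 8 lost calls came from the share difference between assays with 1 library left out. There the exact permutation test cannot go below 0.0571, so the call was bound to be lost. The class of the same includes counts that changed in size. Per exon length, 20 members were higher and 27 lower in the 3′ end libraries, against 30 and 20 in the main fit. Their median log2 difference was then -0.61, against 0.75. With a library left out, the share of RNA-seq counts (gUSE minus gNT) ran from -0.0122 to 0.00810 percentage points and turned sign without gNT library 5 (0.00339) and without gUSE library 7 (0.00810). That of 3′ end reads ran from -0.0208 to 0.111 and turned without gUSE library 2 (-0.0208). The share difference between assays ran from 4.955 to 4.999 with p = 0.0571 (exact permutation test), the smallest that 3 against 4 libraries allow. The median leading share was 98.3% over all listed PASs and 99.4% for PASs with at least 5 reads in all 4 libraries. Without the filter on low counts 1 member passed in RNA-seq (RPL27) and 1 in the 3′ end libraries (RPL34). Over all genes, 58 of 32972 and 66 of 12544 did. With a library left out, 0 to 1 passed in RNA-seq. In the test of the difference between assays, DESeq2 and library totals each called 2 members (RPL3 and RPL34). Over all 10691 genes they called 34 and 65. The lost call of RPL3 with a library left out is given above. With pseudogenes added, 1 member passed the test of the difference between assays (RPL34, edgeR adjusted p = 0.0467), of 57 genes called among 10650. In that setting 13 members were lower in the 3′ end libraries, beside 25.9% of all genes. RPL3 then stood at -0.0232 on the log2 scale for gUSE against gNT. Over all genes, calls for gUSE against gNT numbered 13 in RNA-seq, with 1 by DESeq2, 58 without the filter and 14 to 62 with a library left out, and 41 in the 3′ end libraries, with 14 by DESeq2, 66 without the filter and 0 to 55 with a library left out. The causes were not tested.

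The replicate numbers 1 and 2 of the 3′ end libraries are not said by the labels to mark a shared batch, though the study used a paired test for its reporter. Same-numbered libraries deviated together with a correlation of 0.0514 over 7689 genes and -0.238 over 60 members. With a replicate block 7 of 63 members passed (RPL5, RPL36, RPL27, RPL3, RPL34, RPLP1 and RPS16), among 178 of 8559 genes. Without it 0 members passed, among 41 of 8559 genes. For usage, 0 member PASs passed with a block. RNA-seq libraries share no numbers, so no block could be fitted there.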
